A study of Homo sapiens with 24 samples.

Results

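The difference described here is the effect of lowering ZFX and ZNF593 together minus the effect of lowering ZFX alone, in LN-229 cells, an established human glioblastoma line. For each gene, the log2 change of the double knockdown over its control set was taken, and the log2 change of the ZFX knockdown over its own control set was subtracted. It uses 12 of the 24 RNA-seq libraries of the series, in 4 groups of 3. In the order of the subtraction these are LN-229 cells that received siRNAs against both ZFX and ZNF593 (labelled siZFX siZNF593 and called the double knockdown below), a further set of control siRNA libraries (siControl_2), LN-229 cells that received an siRNA against ZFX only (siZFX), and the first set of control siRNA libraries (siControl). All are labelled wild type in genotype, and the treatment label is the same for siControl and siControl_2, so that only the sample names set them apart. Dose and time after the siRNAs are not given in the labels used here. Another group of 3 LN-229 libraries, given an siRNA against ZNF593 only (siZNF593), entered the fit and is quoted beside the difference. The series names 3 biological replicates per group and does not say that they were separate cultures. P-values therefore reflect only the spread of libraries within groups, pooled over the 5 groups of the fit and partly shared between genes. This spread may be technical.

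ZFX is a zinc finger transcription factor encoded on the X chromosome that binds downstream of the start sites of many CpG island promoters and acts mostly as an activator. ZNF593 is a small zinc finger protein related to a yeast factor that travels with the large ribosomal subunit as it leaves the nucleus. Glioblastoma lines such as LN-229 express neural stem and mesenchymal genes together, with parts of the glial lineage programmes, of inflammatory NF-kB signalling and of growth factor signalling. In the difference, some genes of glial and myelin biology were among the highest. Some genes of NF-kB feedback, of NRF2 and iron metabolism and of extracellular matrix were among the lowest. The glial, iron and matrix lists also held genes called the other way, and ACAN, a matrix gene, was among the highest.

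Between 20111290 and 30159260 reads per library were assigned to genes in these 12, and 17684 genes had enough counts to be tested. LN-229 markers were present in all 12 (in CPM, a gene's counts scaled to the library's size, VIM was at 912 to 1274, SOX2 at 79.5 to 136 and EGFR at 66.9 to 124), apart from SOX9, which was at 0.0818 to 2.52 CPM. Defining markers of other cell types were at or near 0: AIF1 had no count, CD3E reached 0.123 CPM, EPCAM 0.0433, CDH5 0.0863 and AQP4 0.0988. Replicate 3 of the double knockdown lay apart on the first principal component (78.5 against 33.0 and 34.2 for replicates 1 and 2). Its share of mitochondrial reads was 3.57%, against 4.54% and 4.74% in the other two, and the shares in the other groups were 3.19% to 3.60% in siControl, 4.45% to 4.60% in siZFX and 4.32% to 5.01% in siControl_2. Its part in the results was not tested beyond leaving it out, which gave 1902 higher and 2003 lower genes.

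The knocked-down transcripts check the labels. ZFX was at 55.2, 50.8 and 45.7 CPM in siControl, 12.7, 15.7 and 19.7 in siZFX, 48.8, 56.1 and 55.8 in siControl_2 and 24.1, 28.6 and 27.2 in the double knockdown. The 3 double knockdown libraries lay above the 3 siZFX libraries and below all control libraries. siZFX left 31.7% of control and the double knockdown 49.8%, and these effects differed by 0.65 (SE 0.17, adjusted p = 0.0112). The difference therefore also compares cells at 2 levels of ZFX, besides setting cells with less ZNF593 against cells with more. ZNF593 had no unstranded count, since it lies under a gene on the opposite strand, so both stranded columns were summed for it. The sum cannot separate ZNF593 from that antisense gene. It was at 30.0, 32.1 and 27.2 CPM in siControl, 34.2, 35.1 and 28.96 in siZFX, 34.4, 29.7 and 28.6 in siControl_2 and 2.45, 3.18 and 2.56 in the double knockdown. In siZNF593 it was at 2.41, 1.34 and 2.09 CPM, and no other group was low. The difference was -3.63 (SE 0.20, adjusted p = 2.59e-11), a ratio of 8.05% between the 2 fold changes. The double knockdown left 8.86% of siControl_2, while siZFX itself gave a log2 change of 0.14 (adjusted p = 0.465).

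**Figure D1:**
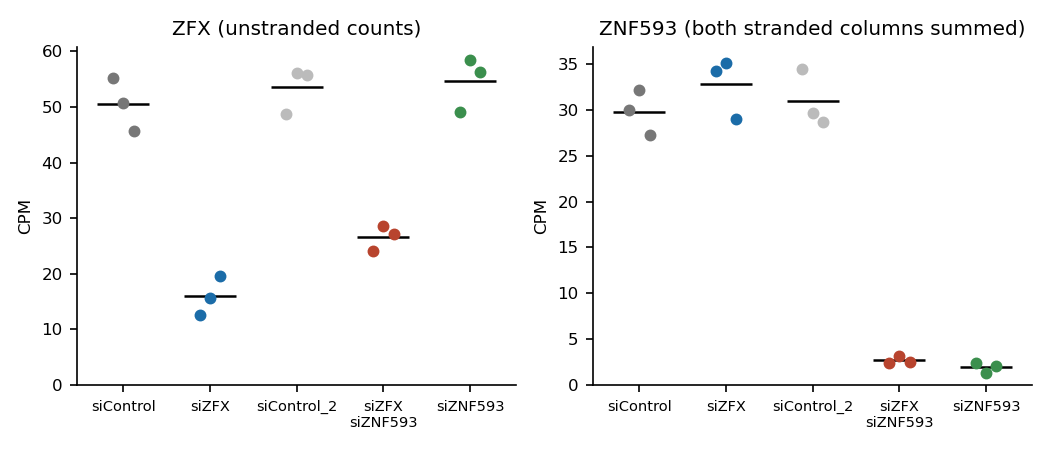
CPM of ZFX (left, unstranded counts) and ZNF593 (right, both stranded columns summed) in each library of the 5 LN-229 groups; points are libraries and lines group means. ZFX is lowest in siZFX and at an intermediate level in the double knockdown, and ZNF593 is low only where its siRNA was given.

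Of 17684 genes, 1550 were called higher (8.76%) and 1587 lower (8.97%) in the difference at an adjusted p below 0.05, together 17.7%. The median log2 difference over all genes was 0.0078 and the median size among called genes 0.68. By at least 1.5-fold, 935 were higher and 957 lower. The difference is also the double knockdown over siZFX minus siControl_2 over siControl, so the distance between the control sets enters it: between these sets alone 10.3% of genes were called, 5.43% higher and 4.88% lower in siControl_2. Of the called genes, 1322 of 1550 and 1314 of 1587 were called the same way when the double knockdown was set directly against siZFX, where 17% of all genes were higher and 17.5% lower. For 128 higher and 163 lower genes only the control sets differed significantly, in the direction that makes the difference. This direct comparison (double knockdown over siZFX, "directly" below) is therefore given for each list counted and for the genes described with their own test where it departs by more than 1.5 times. Counts of list members below are to be read against the shares of all genes. These were 8.76% higher and 8.97% lower in the difference, and 17% and 17.5% directly.

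The 2 effects that are subtracted share no library. Over all genes, 38.2% were called with the double knockdown. Of the 3025 genes that fell with siZFX, 57.9% also fell with the double knockdown, 35.4% were not called and 203 rose. Of the 2439 that rose with siZFX, 49.1% rose with the double knockdown and 203 fell. Over the genes at 5 CPM or more the 2 effects had a Pearson r of 0.53 across 11092 genes, which are not independent replicates. Among the 1550 genes higher in the difference, 203 fell with siZFX and rose with the double knockdown, 492 fell with siZFX and were not called with both siRNAs, and 542 rose only with both. Among the 1587 lower genes, 736 (46.4%) fell with both siRNAs and were not called with siZFX, 388 rose with siZFX and were not called with both, and 203 rose with siZFX and fell with both.

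**Figure D2:**
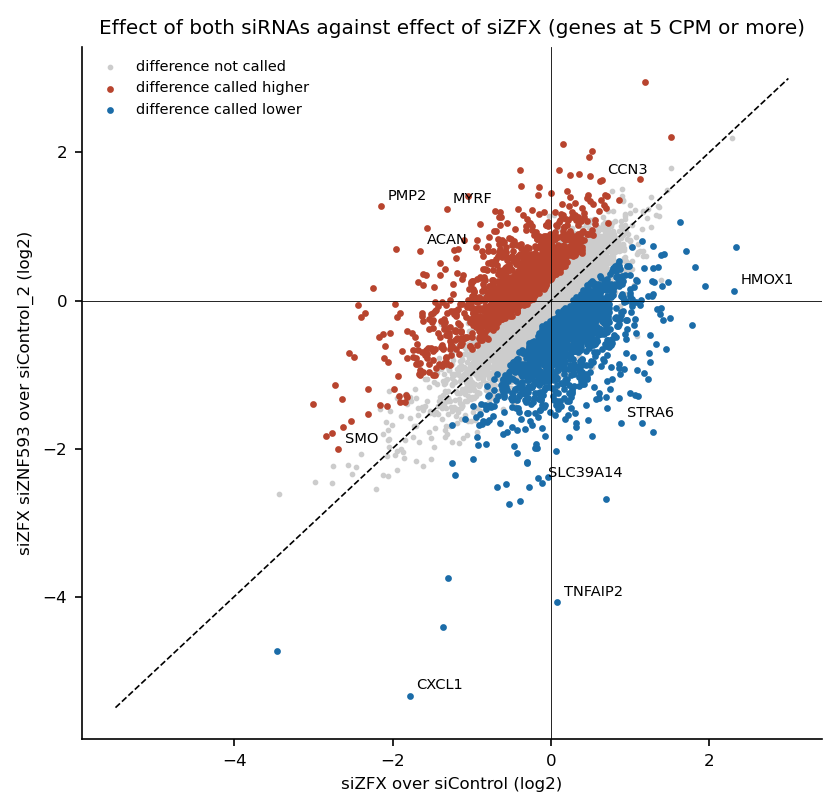
Log2 change of the double knockdown over siControl_2 (vertical) against log2 change of siZFX over siControl (horizontal) for the 11092 genes at a mean of 5 CPM or more; red and blue points were called higher or lower in the difference and the dashed line marks equal effects. Called genes spread on both sides of the line, with PMP2 and MYRF down on one axis and up on the other and HMOX1 up with siZFX only.

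Genes of oligodendrocytes and Schwann cells, the myelin-forming glia, stood among the highest differences. In bulk RNA a change in the share of cells that express a gene and a change in RNA per cell cannot be told apart. PMP2, which encodes a lipid-binding protein of peripheral myelin, had the largest positive difference among protein-coding genes at 5 CPM or more. PMP2 was at 7.15, 6.67 and 7.55 CPM in siControl, 1.46, 1.48 and 1.86 CPM in siZFX, 4.56, 3.66 and 5.57 CPM in siControl_2 and 8.38, 9.50 and 15.5 CPM in the double knockdown. It fell with siZFX and rose with the double knockdown, with no overlap between any 2 of the 4 groups. The difference was 3.42 (SE 0.31, adjusted p = 3.19e-08), a 10.7-fold ratio of the 2 fold changes. MYRF (ENSG00000124920.13, chromosome 11, 61752642 to 61788518, GRCh38 with GENCODE 29, as for all positions below), the transcription factor that switches on myelin genes, had its siZFX libraries lowest and its double knockdown libraries highest too. MYRF was at 14.1, 11.0 and 13.4 CPM in siControl, 5.22, 5.23 and 4.94 CPM in siZFX, 8.90, 7.43 and 10.1 CPM in siControl_2 and 25.4, 18.7 and 18.2 CPM in the double knockdown. All 3 double knockdown libraries were above every other library of the 4 groups, and the difference was 2.55 (SE 0.21, adjusted p = 9.80e-09). Without the control sets, the double knockdown was above siZFX by 2.79 for PMP2 and 2.01 for MYRF on the log2 scale.

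Of 14 measured oligodendrocyte lineage genes, 8 were higher and 2 lower, with a median difference of 0.51 against 0.0078 over all genes; the median between the control sets was 0.31. Directly against siZFX, 10 were higher and 1 lower, and without siControl replicate 3 the difference had 5 higher. Besides MYRF, the higher members included OLIG1 and OLIG2, the basic helix-loop-helix factors of the lineage, UGT8, which makes the myelin lipid galactosylceramide, CNP, MBP and SOX10. MBP stayed at or under 1.58 CPM in every library, which is too low to read its fold. SOX10, named after its values were seen, had a difference of 0.37 (SE 0.12, adjusted p = 0.0441) that was not called without siControl replicate 1 or 3, siZFX replicate 2 or 3, siControl_2 replicate 2 or 3, or double knockdown replicate 1 or 2. MAG, a myelin adhesion protein, had a difference of -1.01 (SE 0.23, adjusted p = 0.0029), but -0.26 directly against siZFX (adjusted p = 0.251), the control sets differing by 0.76. TF, the iron carrier made by oligodendrocytes and also named after its values were seen, was at 27.3 ± 2.49 CPM in siZFX and 123 ± 3.27 CPM in the double knockdown (mean ± SD, n = 3), but at 33.4 ± 1.33 in siControl and 103 ± 9.47 in siControl_2. Its difference was 0.56, and 2.18 directly.

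Astrocyte, neural stem and neuronal genes went both ways. FABP7, the fatty acid binding protein of radial glia, was at 62.3, 66.6 and 57.0 CPM in siControl, 15.8, 14.95 and 14.6 in siZFX, 143, 117 and 134 in siControl_2 and 91.0, 92.0 and 109 in the double knockdown. It fell in both comparisons, far more with siZFX, and the difference was 1.60 (SE 0.13, adjusted p = 1.12e-08) and 2.68 directly. KCNJ10, the inward rectifier potassium channel of glia, had a difference of 1.93 (SE 0.20, adjusted p = 3.84e-07) and of 3.16 directly, and GAP43, a growth cone protein, one of 1.91 (SE 0.22, adjusted p = 1.59e-06). CALB2, which encodes the calcium binding protein calretinin, was called higher at 1.35 although the direct comparison gave -1.56: siControl_2 was at 1.98 to 2.86 CPM and siControl at 17.3 to 18.8. NES, the intermediate filament of neural stem cells, was lower, at 804 ± 6.27 CPM in siZFX and 359 ± 66.5 in the double knockdown (difference -0.75, SE 0.13, adjusted p = 2.97e-04; -1.16 directly). Of 12 measured astrocyte and neural stem genes, 2 were higher (16.7%) and 3 lower (25.0%), and directly 4 and 5 (4 higher in the difference without double knockdown replicate 3). Of 12 neuronal genes 3 were higher (25.0%) and 1 lower (8.33%, against 8.97% of all genes), and directly 5 and 2. In the difference 0 were lower without siControl replicate 3, siZFX replicate 2 or siControl_2 replicate 1.

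Among the remaining leading rises, B3GALT2, a galactosyltransferase of glycan synthesis (ENSG00000162630.5, chromosome 1, 193179045 to 193186654), had a difference of 2.66 (SE 0.21, adjusted p = 4.94e-09), and TMOD2, a neuronal tropomodulin that caps actin filaments, one of 2.42 (SE 0.14, adjusted p = 5.04e-11). TMOD2 was at 12.3, 10.1 and 10.8 CPM in siZFX and 55.5 to 71.7 CPM in the double knockdown, close to siControl (51.3 to 54.0) and siControl_2 (51.9 to 56.5). The double knockdown did not differ detectably from its control there (log2 0.17, adjusted p = 0.166). ACAN, which encodes the proteoglycan aggrecan, was higher by 2.32 (SE 0.24), DMTN, an actin bundling protein, by 2.54 (SE 0.29), PLEKHS1 by 2.46 (SE 0.34), the kinase gene AATK by 2.38 (SE 0.32) and IL16, a cytokine precursor, by 1.97 (SE 0.17), all called. AATK varied in the double knockdown, at 30.6, 20.8 and 13.2 CPM. IL16 shares 36.6% of its exon length with STARD5, where unstranded reads cannot be assigned, so its value is uncertain.

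**Figure D3:**
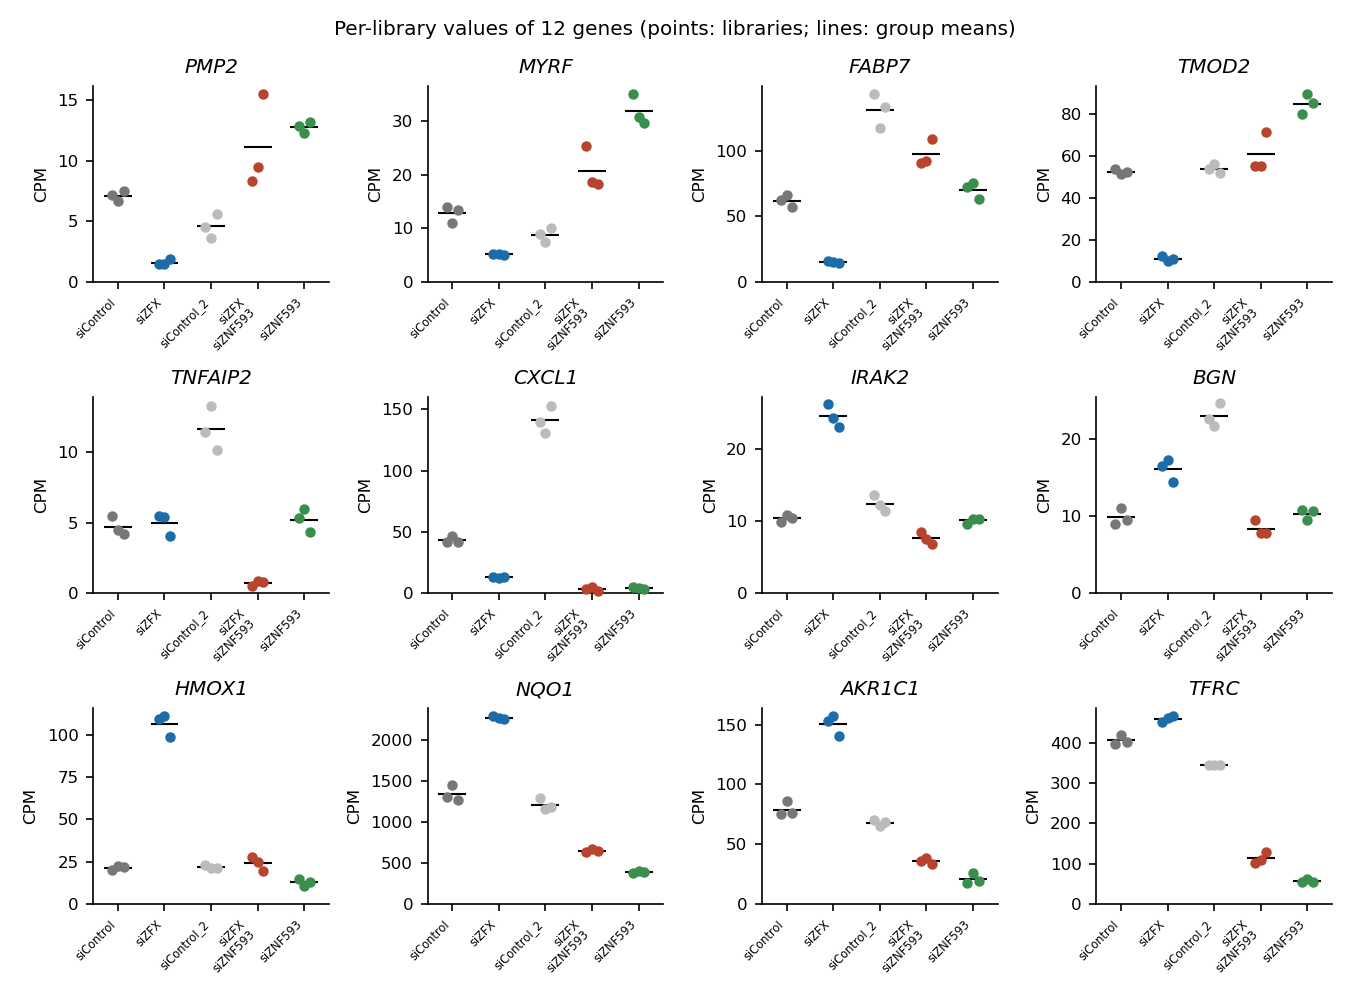
CPM of 12 genes in each LN-229 library (points) with group means (lines), each panel from 0 on its own linear scale. PMP2, MYRF, FABP7 and TMOD2 in the top row are lowest in siZFX; TNFAIP2 is lowest in the double knockdown and CXCL1 in both groups given the ZNF593 siRNA, and both are highest in siControl_2; HMOX1 stands out in siZFX only.

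NF-kB is a family of transcription factors held in the cytoplasm by inhibitor proteins and released by inflammatory signals; its targets include chemokines, adhesion molecules and its own inhibitors. Of 23 measured NF-kB factors and feedback targets, 13 were lower and 0 higher in the difference, with a median of -0.86. Between the control sets the list's median was 0.34. Directly against siZFX, 14 were lower and 3 higher, with a median of -0.39. TNFAIP2, induced by tumour necrosis factor (ENSG00000185215.8, chromosome 14, 103123442 to 103137439), had the most negative difference among protein-coding genes at 5 CPM or more. TNFAIP2 was at 5.44, 4.47 and 4.18 CPM in siControl, 5.49, 5.42 and 4.03 CPM in siZFX, 11.4, 13.3 and 10.2 CPM in siControl_2 and 0.479, 0.833 and 0.745 CPM in the double knockdown. The siZFX libraries overlapped siControl, the double knockdown libraries lay below all others, and siControl_2 lay above them. The difference was -4.15 (SE 0.31, adjusted p = 2.58e-09), and -2.85 directly. With siZNF593 alone TNFAIP2 did not change detectably (5.31, 5.95 and 4.33 CPM; log2 0.15, adjusted p = 0.649).

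IRAK2, a kinase of interleukin-1 and Toll-like receptor signalling, depended less on the control sets. IRAK2 was at 9.82, 10.8 and 10.4 CPM in siControl, 26.2, 24.2 and 23.0 CPM in siZFX, 13.6, 12.1 and 11.3 CPM in siControl_2 and 8.46, 7.42 and 6.82 CPM in the double knockdown. It rose with siZFX and fell with the double knockdown, and no double knockdown library reached a library of another of the 4 groups. The difference was -1.95 (SE 0.17, adjusted p = 2.59e-08), and -1.69 directly. NFKBIA, which encodes the inhibitor IkB-alpha and was named after its values were seen, had a difference of -1.46 (SE 0.17, adjusted p = 1.32e-06), and of -0.88 directly. ICAM1, an adhesion molecule for leukocytes, had a difference of -1.51 (SE 0.20, adjusted p = 7.09e-06), yet siZFX (22.03 to 25.5 CPM) and the double knockdown (16.4 to 24.4 CPM) did not differ detectably (log2 -0.16, adjusted p = 0.396), and siControl_2 was above siControl by 1.35. It shares 23.6% of its exon length with ICAM4-AS1.

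CXCL1, a neutrophil-attracting chemokine (ENSG00000163739.4, chromosome 4, 73869393 to 73871242), fell with siZFX, with the double knockdown and with siZNF593. CXCL1 was at 42.0, 46.9 and 41.8 CPM in siControl, 13.1, 12.2 and 12.7 CPM in siZFX, 139.9, 131 and 153 CPM in siControl_2 and 3.55, 5.03 and 1.84 CPM in the double knockdown. The double knockdown was the lowest and siControl_2 the highest of the 4 groups, with no overlap. The difference was -3.55 (SE 0.28, adjusted p = 3.92e-07), and -1.86 directly (adjusted p = 9.90e-06); siZNF593 alone lowered it to 4.61, 4.09 and 3.00 CPM. CXCL8, another neutrophil chemokine, had a difference of -3.05 (SE 0.22, adjusted p = 4.25e-09), and -1.41 directly. CSF1, the macrophage growth factor, was at 51.1 ± 3.02 CPM in siZFX and 21.2 ± 6.81 CPM in the double knockdown (difference -1.79, SE 0.22, adjusted p = 2.57e-05). Of 14 measured chemokines and cytokines 3 were lower (21.4%) and 2, CXCL16 and IL1A, higher (14.3%), and directly 6 and 4. Leaving out siControl_2 replicate 2 or double knockdown replicate 2 or 3 made 5 lower, and the number higher was 1 without siControl replicate 1 or 2, siControl_2 replicate 1 or 2, siZFX replicate 2 or 3 or double knockdown replicate 2, and 4 without double knockdown replicate 3. Of 13 complement and acute phase genes 6 were lower and 0 higher, and directly 4 and 2. C1S, a complement protease, had a difference of -1.65 (SE 0.20, adjusted p = 2.30e-06) but of -0.34 directly (adjusted p = 0.0636), the control sets differing by 1.31.

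Promoters of CXCL1, NFKBIA and TNFAIP2 are shown from the RefSeq promoter table on GRCh38.p14, 250 bases up to the start site. They read 5′ to 3′ on the gene's strand, and only part of the matches is marked. Left unmarked are matches to TGACNNNGC, explained below, 2 in TNFAIP2 and 1 in NFKBIA. TNFAIP2 held no NF-kB match in these bases. Capitals mark matches to the NF-kB consensus in CXCL1 (chr4:73869143-73869392, plus strand; 2 overlapping matches, the first starting 79 bases before the start site) and NFKBIA (chr14:35404750-35404999, minus strand; 81 bases before it), and the ZFX core AGGCCT in TNFAIP2 (chr14:103123211-103123460, plus strand; 26 bases before it).
CXCL1: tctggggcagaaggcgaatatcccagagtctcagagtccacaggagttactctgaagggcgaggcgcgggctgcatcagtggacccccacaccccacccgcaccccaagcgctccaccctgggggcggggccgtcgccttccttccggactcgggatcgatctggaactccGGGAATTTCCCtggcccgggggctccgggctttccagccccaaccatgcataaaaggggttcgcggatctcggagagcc
NFKBIA: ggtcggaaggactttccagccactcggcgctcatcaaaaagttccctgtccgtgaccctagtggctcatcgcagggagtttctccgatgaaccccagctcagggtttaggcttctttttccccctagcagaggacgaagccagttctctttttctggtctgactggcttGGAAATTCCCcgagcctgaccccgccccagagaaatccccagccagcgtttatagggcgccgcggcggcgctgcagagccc
TNFAIP2: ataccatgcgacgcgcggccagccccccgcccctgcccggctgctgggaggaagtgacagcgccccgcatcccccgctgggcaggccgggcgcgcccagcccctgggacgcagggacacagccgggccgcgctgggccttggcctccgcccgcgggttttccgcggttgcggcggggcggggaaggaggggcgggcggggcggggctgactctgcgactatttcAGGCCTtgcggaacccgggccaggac

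A match is a description of letters and not a site that was measured. In 300-base windows around the start, searched on both strands, the NF-kB consensus was found in 13.8% of 1104 higher and 14.8% of 1252 lower protein-coding genes with a promoter in the table, against 12.8% of 10966 tested. AGGCCT was found in 10.4%, 10.6% and 10.8% of the same sets. TGACNNNGC, the core of the antioxidant response element to which NRF2 binds, was found in 15.2%, 13.9% and 14.8%, and the AP-1 sequence TGANTCA, whose own reverse complement it also matches, in 5.34%, 4.87% and 4.61%. Called genes held each of these at nearly the share of all tested genes.

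**Figure D4:**
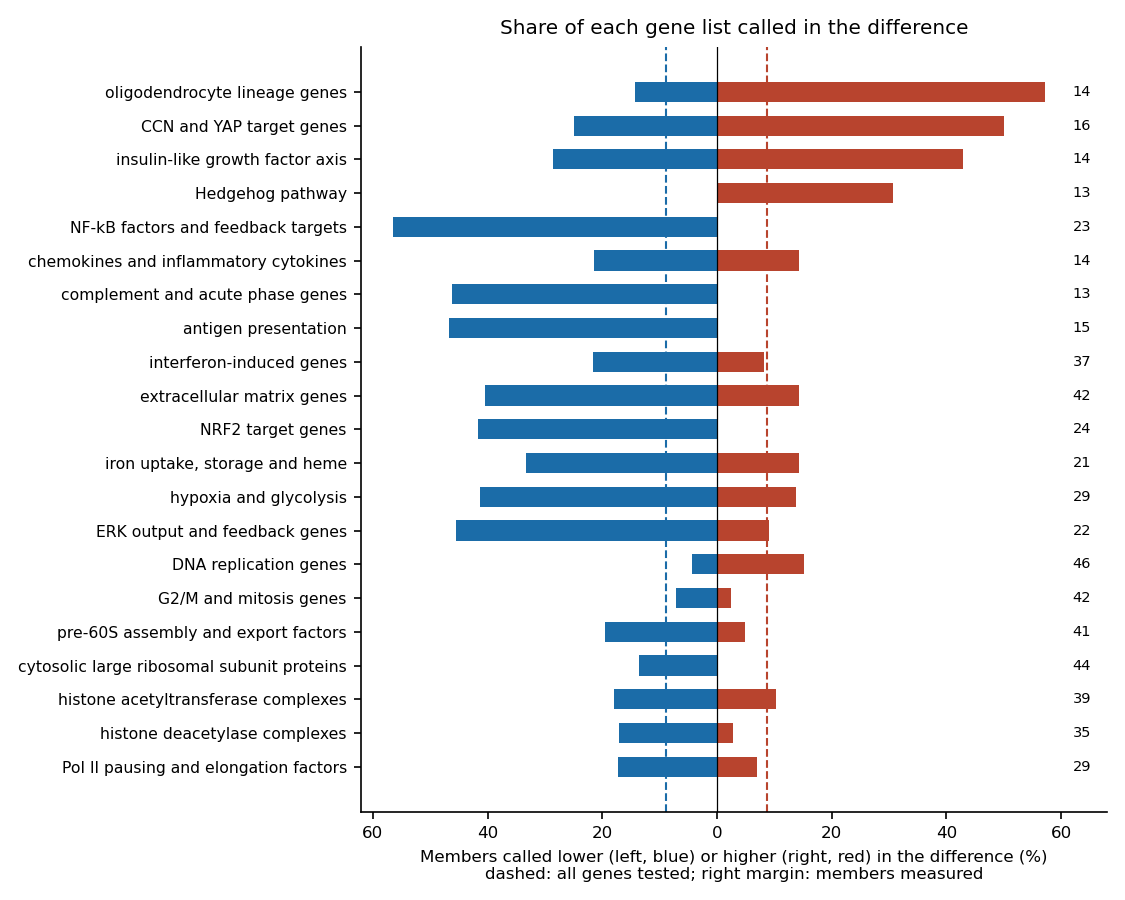
Percentage of the measured members of 21 gene lists called lower (blue, left) or higher (red, right) in the difference; numbers at the right are members measured and dashed lines the percentages over all genes tested, 8.97% lower and 8.76% higher. Oligodendrocyte lineage genes reach furthest to the right and NF-kB factors and feedback targets furthest to the left.

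Antigen presentation genes were lower too: 7 of 15 were called lower and 0 higher, with a median of -0.41, and 6 were lower directly; without siZFX replicate 2 the count was 4. HLA-C, a class I heavy chain, was at 209 ± 15.4 CPM in siZFX and 113 ± 20.1 CPM in the double knockdown, with a difference of -0.95 (SE 0.16, adjusted p = 3.95e-04). Class I genes are close copies of one another, so reads may be split between them. Of 37 interferon-induced genes 8 were lower (21.6%, against 8.97% of all genes) and 3 higher (8.11%, against 8.76%). The lower count was 5 without siControl replicate 1 or 3 or siZFX replicate 1 or 2. Directly against siZFX 5 were lower and 10 higher, where 17.5% and 17% of all genes were called. The median difference between the control sets was 0.33. BST2, which tethers viruses to the cell surface, had a difference of -2.25 (SE 0.37, adjusted p = 1.39e-04) and -0.86 directly. IFI6 had one of -1.27 (SE 0.25, adjusted p = 0.00186), but 0.29 directly (adjusted p = 0.227). OASL, an antiviral 2′-5′ oligoadenylate synthetase-like protein, rose in both comparisons. It was at 2.15, 2.41 and 2.37 CPM in siControl, 5.58, 5.42 and 4.77 CPM in siZFX, 0.784, 1.66 and 2.10 CPM in siControl_2 and 10.2, 11.5 and 13.2 CPM in the double knockdown. Its difference was 1.77 (SE 0.34, adjusted p = 7.28e-04), and 1.14 directly.

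NRF2 is the transcription factor of the oxidative stress response, and its targets carry out quinone reduction, glutathione metabolism, the pentose phosphate pathway and heme breakdown. Of 24 measured NRF2 targets 10 were lower and 0 higher in the difference (median -0.31; 1 higher without any 1 double knockdown library), and 18 were lower and 1 higher directly against siZFX (median -0.76). HMOX1, which encodes heme oxygenase 1 (ENSG00000100292.16, chromosome 22, 35380361 to 35394214), led the list. HMOX1 was at 20.3, 22.3 and 21.6 CPM in siControl, 109, 111 and 98.7 CPM in siZFX, 23.2, 21.1 and 21.2 CPM in siControl_2 and 27.8, 24.7 and 19.5 CPM in the double knockdown. Only siZFX was high: HMOX1 rose there by a log2 of 2.31, while the double knockdown overlapped siControl_2 (log2 0.14, adjusted p = 0.401). The difference was -2.18 (SE 0.17, adjusted p = 2.80e-09), a 4.52-fold ratio of the fold changes, and -2.15 directly.

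NQO1, a quinone reductase (ENSG00000181019.12, chromosome 16, 69706996 to 69726951), went opposite ways in the 2 effects. NQO1 was at 1307, 1449 and 1269 CPM in siControl, 2289.9, 2264 and 2249 CPM in siZFX, 1291, 1151 and 1182 CPM in siControl_2 and 633, 672 and 647 CPM in the double knockdown. It rose with siZFX and fell with both siRNAs, and the control sets overlapped. The difference was -1.65 (SE 0.09, adjusted p = 1.33e-11), and siZNF593 alone brought it to 381, 406 and 384 CPM; 17.7% of its exon length is shared with another gene. AKR1C1, an aldo-keto reductase, followed the same course, from 150.2 ± 8.59 CPM in siZFX to 35.8 ± 2.17 CPM in the double knockdown with controls at 78.8 ± 6.16 and 67.8 ± 2.43 CPM (difference -1.85, SE 0.14, adjusted p = 2.79e-09). Its close copies AKR1C2 and AKR1C3 were also lower, and reads may be split among the 3. TKT, the transketolase of the pentose phosphate pathway, named after its values were seen, was at 1743 ± 67.5 CPM in siZFX and 689 ± 66.6 CPM in the double knockdown (difference -1.36, SE 0.09, adjusted p = 6.57e-10), and PGD of the same pathway had one of -0.37.

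Genes of iron uptake and heme synthesis split. SLC39A14, a metal importer that carries iron and zinc, was low in both groups given the ZNF593 siRNA. SLC39A14 was at 153, 169 and 148 CPM in siControl, 145, 146 and 145 CPM in siZFX, 155, 137 and 143 CPM in siControl_2 and 24.9, 26.1 and 27.3 CPM in the double knockdown. The siZFX and siControl_2 libraries overlapped, siZFX alone was not called (log2 -0.11), and the double knockdown libraries were the lowest of the 4 groups. The difference was -2.36 (SE 0.12, adjusted p = 7.72e-12), and siZNF593 alone gave 24.9, 21.1 and 27.2 CPM. TFRC, the transferrin receptor (ENSG00000072274.12, chromosome 3, 196027183 to 196082189), named after its values were seen, was at 452, 462 and 466 CPM in siZFX and 102, 109 and 129.8 in the double knockdown. Its difference was -1.78 (SE 0.11, adjusted p = 6.47e-11). CPOX, an enzyme of heme synthesis, had a difference of -2.07 (SE 0.21, adjusted p = 2.44e-07). Of 21 measured genes of iron uptake, storage and heme 7 were lower (33.3%), among them HMOX1, STEAP3, FTL and ALAS1. Higher were 3 (14.3%), TF, UROD and FBXL5. Directly, 8 were lower and 8 higher.

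ERK signalling carries growth factor receptor signals to the nucleus, where it induces ETS factors and the phosphatases and Sprouty proteins that limit it. Of 22 measured output and feedback genes 10 were lower and 2, HBEGF and TGFA, higher (1 higher without siControl replicate 2, siZFX replicate 2 or siControl_2 replicate 1); the median was -0.47. Directly, 12 were lower and 3 higher. ETV5, an ETS factor (ENSG00000244405.7, chromosome 3, 186046308 to 186110318), was nearly constant within groups. ETV5 was at 104, 105 and 104 CPM in siControl, 94.3, 91.8 and 90.9 CPM in siZFX, 119, 119.8 and 121 CPM in siControl_2 and 29.9, 29.8 and 30.5 CPM in the double knockdown. The double knockdown libraries were the only low ones of these 4 groups, siZNF593 was lower still at 15.2, 16.1 and 17.5 CPM, and the difference was -1.82 (SE 0.10, adjusted p = 1.05e-11). DUSP4, an ERK phosphatase, was at 251 ± 8.03 CPM in siZFX and 97.3 ± 17.3 CPM in the double knockdown (difference -1.39, SE 0.13, adjusted p = 4.57e-08). SPRY1 had a difference of -2.25 (SE 0.30, adjusted p = 9.36e-06), and -1.11 directly, with siControl_2 above siControl by 1.13.

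Receptor tyrosine kinases of glioma moved both ways, with 6 of 20 higher and 4 lower, and directly 7 and 6. AXL, the GAS6 receptor, was at 658, 669 and 700.2 CPM in siZFX and 276, 269 and 225 CPM in the double knockdown; the siZFX libraries overlapped siControl, and the difference was -1.11 (SE 0.11, adjusted p = 1.66e-07). FGFR1 had a difference of -0.95 (SE 0.15) and PDGFRB one of -0.87. EPHA3, an ephrin receptor, was higher: 60.1, 64.8 and 69.5 CPM in siZFX and 173, 179.6 and 189 CPM in the double knockdown, above all control libraries, with a difference of 1.18 (SE 0.10, adjusted p = 1.37e-08). ERBB3 was higher by 0.92, FGFR3 by 0.81 and ERBB2 by 0.74. In the insulin-like growth factor axis 6 of 14 were higher and 4 lower, and directly 5 and 6. IRS2, the docking protein of insulin and IGF receptors, was at 72.3 ± 3.64 CPM in siZFX and 137 ± 19.0 CPM in the double knockdown, with a difference of 1.43 (SE 0.12, adjusted p = 1.23e-08), and 0.93 directly. STC2, a secreted inhibitor of IGF release named after its values were seen, had a difference of 0.52 and of -1.45 directly; siControl_2 was at 22.5 to 23.0 CPM and siControl at 85.0 to 93.5.

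Extracellular matrix genes were lower more often than higher, 17 against 6 of 42, with a median of -0.30. The median between the control sets was 0.28, and directly against siZFX 15 were lower and 12 higher with a median of -0.08. BGN, the proteoglycan biglycan (ENSG00000182492.15, chromosome X, 153494939 to 153509554), was lower in the difference. BGN was at 8.98, 11.03 and 9.44 CPM in siControl, 16.6, 17.3 and 14.5 CPM in siZFX, 22.6, 21.7 and 24.6 CPM in siControl_2 and 9.53, 7.80 and 7.80 CPM in the double knockdown. It rose with siZFX and fell with the double knockdown, but siControl_2 was above both. The difference was -2.17 (SE 0.18, adjusted p = 9.80e-09), and -0.94 directly. COL1A1, the main chain of type I collagen, named after its values were seen, had a difference of -1.84 (SE 0.27, adjusted p = 5.19e-05), from 18.6 ± 0.413 CPM in siZFX to 6.07 ± 2.36 CPM in the double knockdown. POSTN, the matrix protein periostin, had a difference of -1.92 (SE 0.25, adjusted p = 7.43e-06) but of -0.32 directly (adjusted p = 0.205). TIMP3, an inhibitor of matrix proteases also named after its values were seen, was among the higher ones: 1131, 1203 and 1143 CPM in siControl, 333, 379 and 359.9 in siZFX, 1285, 1249 and 1261 in siControl_2 and 823, 836 and 857 in the double knockdown. It fell in both comparisons and fell less with both siRNAs, with a difference of 1.10 (SE 0.08, adjusted p = 2.80e-09). THBS1, named likewise, was higher by 0.90, but by 0.03 directly (adjusted p = 0.775).

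Outside that list, ITGA11, a collagen-binding integrin, had a difference of -2.80 (SE 0.27, adjusted p = 1.15e-07), and -1.53 directly. ISLR, SNED1 and STRA6 were also among the 10 largest falls. STRA6, the membrane receptor of retinol-binding protein (ENSG00000137868.18, chromosome 15, 74179466 to 74212267), followed the pattern of IRAK2. STRA6 was at 144, 150.4 and 159 CPM in siControl, 279.9, 285 and 273 CPM in siZFX, 223, 213 and 216 CPM in siControl_2 and 75.6, 73.5 and 57.8 CPM in the double knockdown. It rose with siZFX and fell below both control sets with both siRNAs, and the difference was -2.54 (SE 0.11, adjusted p = 2.15e-12). SNED1 shares 37.6% of its exon length with MTERF4 and is uncertain, and ISLR was at or under 2.99 CPM in the double knockdown. CITED4, GABRE, HOXC11, ABRACL, RAB27B and ANGPTL4 had differences of -2.45 to -2.11.

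CCN genes encode matricellular proteins, and CCN1 and CCN2 are targets of YAP, the effector of the Hippo pathway. Of 16 measured CCN and YAP target genes 8 were higher and 4 lower (2 lower without siZFX replicate 3), and directly 6 and 6. CCN2 was at 85.8, 116 and 93.6 CPM in siZFX and 177, 182 and 209.7 CPM in the double knockdown, above all control libraries, with a difference of 1.34 (SE 0.13, adjusted p = 7.36e-08). CCN3 rose in both comparisons: it was at 17.8, 18.1 and 17.2 CPM in siControl, 28.4, 26.6 and 27.0 in siZFX, 21.9, 20.1 and 24.2 in siControl_2 and 59.0, 69.5 and 75.2 in the double knockdown. The rise was larger with both siRNAs, by 0.99 (SE 0.14, adjusted p = 1.50e-05). In the Hedgehog pathway 4 of 13 genes were higher and 0 lower, and directly 6 and 1; the lower count in the difference was 3, 1 and 2 without double knockdown replicate 1, 2 and 3. SMO, the receptor-like signal transducer of the pathway, was at 5.68 ± 0.900 CPM in siZFX and 14.0 ± 2.71 CPM in the double knockdown. Its controls were at 36.5 ± 1.46 CPM in siControl and 56.4 ± 3.3 CPM in siControl_2. SMO fell in both comparisons (log2 -2.69 with siZFX and -2.00 with both siRNAs) and fell less with both. The difference was 0.68 (SE 0.18, adjusted p = 0.00879), and 1.31 directly. HHIP, which binds Hedgehog ligands, had a difference of 1.93 (SE 0.24, adjusted p = 4.12e-06), and 0.64 directly. SFRP1, a secreted inhibitor of WNT, had a difference of -2.09 (SE 0.11, adjusted p = 7.72e-12), at 125 ± 1.29 CPM in siZFX and 36.0 ± 1.16 CPM in the double knockdown. Of 18 WNT genes 5 were lower (27.8%) and 1, LEF1, higher (5.56%, against 8.76% of all genes). The lower count was 3 without siControl replicate 1 or 3 or siZFX replicate 1. Directly 8 were lower and 2 higher. LEF1 was called only in the fits without siControl replicate 3 or double knockdown replicate 3 among the 12 with a library left out.

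In hypoxia and glycolysis genes, 12 of 29 were lower and 4 higher, and directly 14 and 5. ANGPTL4, a secreted protein that blocks lipoprotein lipase (ENSG00000167772.11, chromosome 19, 8363289 to 8374373), rose with siZFX and not with both siRNAs. ANGPTL4 was at 5.77, 5.603 and 5.22 CPM in siControl, 21.7, 19.4 and 16.2 CPM in siZFX, 3.60, 2.41 and 2.30 CPM in siControl_2 and 2.35, 2.65 and 1.65 CPM in the double knockdown. The double knockdown overlapped siControl_2, and the difference was -2.11 (SE 0.30, adjusted p = 2.47e-05); the low counts outside siZFX limit its precision. Its promoter (chr19:8363905-8364154, GRCh38.p14, RefSeq, plus strand, 250 bases up to the start site) is shown because it holds AGGCCT in 2 places, in capitals, the first starting 209 bases before the start site.
ANGPTL4: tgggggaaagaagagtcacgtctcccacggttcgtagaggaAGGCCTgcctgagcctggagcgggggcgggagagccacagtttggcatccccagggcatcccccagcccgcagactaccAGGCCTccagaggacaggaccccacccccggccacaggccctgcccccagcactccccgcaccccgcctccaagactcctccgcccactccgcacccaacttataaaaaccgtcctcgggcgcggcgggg

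LDHA, the lactate dehydrogenase subunit named after its values were seen, had a difference of -0.57 (SE 0.10, adjusted p = 2.80e-04), from 1599.5 ± 22.5 CPM in siZFX to 1031 ± 98.0 CPM in the double knockdown. ENO1, PKM, PFKL and GAPDH, further glycolytic enzymes, had differences of -0.56, -0.45, -0.53 and -0.29. In the amino acid response driven by ATF4, 7 of 25 were lower and 4 higher (6 higher without double knockdown replicate 3), and directly 11 and 4. TRIB3, a pseudokinase of that response, was at 48.9, 48.6 and 50.2 CPM in siZFX and 22.8, 19.5 and 18.5 CPM in the double knockdown, with a difference of -1.50 (SE 0.13, adjusted p = 2.89e-08). DDIT4 and CEBPB had differences of -2.03 (SE 0.43, adjusted p = 0.00695) and -1.48 (SE 0.36, adjusted p = 0.0147), and DDIT4 one of -1.29 directly. Both were lowest in double knockdown replicate 3, at 11.8 and 36.0 CPM against 35.1 and 88.8 CPM in replicate 1. DDIT4 shares 41.2% of its exon length with DDIT4-AS1. Mitochondrially encoded mRNAs were lower in 6 of 13, none higher, with a median of -0.56 and a median of 0.38 between the control sets; directly 3 were lower. MT-ND6 had the most negative value of them, -1.01 (SE 0.14, adjusted p = 2.55e-05), and -0.49 directly; it lies on the opposite strand to the others, and its reads cannot be told apart from antisense RNA. The shares of mitochondrial reads given above move with this list, and their part in it was not tested. In the BCL2 family BMF, a pro-apoptotic member raised by siZFX, had a difference of -1.61 (SE 0.20, adjusted p = 3.10e-06) and of -0.79 directly. BCL2A1, an anti-apoptotic one, was higher by 1.01 (SE 0.22, adjusted p = 0.00188), and by 1.96 directly.

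ZNF593 is related to a factor of large ribosomal subunit export. Of 41 pre-60S assembly and export factors 8 were lower (19.5%, against 8.97% of all genes) and 2 higher (4.88%, against 8.76%) in the difference, with a median of -0.07. The lower count was 3 or 4 when any 1 siControl or siZFX library, or siControl_2 replicate 1 or 3, was left out, and the higher count 5 and 4 without double knockdown replicate 1 and 3. Directly against siZFX 21 were lower and 2 higher, with a median of -0.32. NXT1, of the nuclear export machinery, was at 34.2, 29.1 and 32.0 CPM in siZFX and 22.3, 23.5 and 21.0 CPM in the double knockdown (difference -0.60, SE 0.13, adjusted p = 0.00171). GNL3L, a nucleolar GTPase, had a difference of -0.59 (SE 0.13, adjusted p = 0.00287), and PES1, of the PeBoW complex and named after its values were seen, one of -0.49 (SE 0.12, adjusted p = 0.00486). Large subunit proteins were lower in 6 of 44 (13.6%) and higher in 0 (1 higher without double knockdown replicate 3). The lower count was 3 without siZFX replicate 1 or 2 and 10 without double knockdown replicate 3. Directly 16 were lower and 0 higher. RPL31 had a difference of -0.79 (SE 0.13, adjusted p = 1.02e-04). Of 31 small subunit proteins 3 were lower, 9.68% and so near the 8.97% of all genes, and none higher. The lower count was 1 without siZFX replicate 1 or 2 or siControl_2 replicate 1, and 5 without double knockdown replicate 3. The higher count was 1 without siControl_2 replicate 1. Directly 8 were lower and 1 higher, against 17.5% and 17% of all genes. RPS9 had a difference of -0.51 (SE 0.11, adjusted p = 0.00263), and of -0.33 directly. Ribosomal protein genes have many near-identical pseudogenes that can take their reads. Of 31 genes of RNA polymerase I and rRNA processing 5 were lower (16.1%) and 4 higher (12.9%), and directly 19 and 2. RRP12, a small subunit processing factor, had a difference of -0.64 (SE 0.13, adjusted p = 9.50e-04), and UBTF, the activator of rRNA genes, one of -0.49 (SE 0.13, adjusted p = 0.00899).

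Chromatin and elongation factors had members called in each direction. KAT2B, which encodes the histone acetyltransferase PCAF (ENSG00000114166.7, chromosome 3, 20040023 to 20154404), had the largest value of the acetyltransferase list. KAT2B was at 150.01, 148 and 138 CPM in siControl, 119, 120.0 and 119 CPM in siZFX, 135, 147 and 142 CPM in siControl_2 and 279, 295 and 305 CPM in the double knockdown. The double knockdown libraries were the only high ones of these 4 groups, siZNF593 was also high at 305 to 324 CPM, the control sets overlapped, and the difference was 1.33 (SE 0.09, adjusted p = 3.88e-10). The list had 4 of 39 higher (10.3%) and 7 lower (17.9%), against 8.76% and 8.97% of all genes, and directly 8 higher and 12 lower; in the difference 7 were higher without double knockdown replicate 3, and 2 to 4 lower without any 1 siZFX or siControl_2 library or siControl replicate 1 or 3. ING3 was higher by 0.55 (SE 0.14). VPS72, of the TIP60 and SRCAP complexes, had a difference of -0.98 (SE 0.22) but shares 40.5% of its exon length with TMOD4. Of 35 deacetylase complex genes 6 were lower (17.1%) and 1 higher (2.86%), and directly 15 and 2; without siControl replicate 1 or 2, siZFX replicate 2 or 3 or siControl_2 replicate 2, 3 were lower in the difference, and without double knockdown replicate 1, 2 were higher. CHD3, the NuRD remodeller, had a difference of -0.95 (SE 0.15, adjusted p = 1.58e-04), and of -0.61 directly. Of 29 pausing and elongation factors 5 were lower (17.2%) and 2 higher (6.90%), and directly 16 and 3. LARP7, which holds P-TEFb in its inactive complex, had a difference of -0.94 (SE 0.16, adjusted p = 1.30e-04), and SUPT16H, a subunit of the histone chaperone FACT, was higher by 0.72 (SE 0.10, adjusted p = 1.48e-05). MLLT1, of the super elongation complex, had a difference of -1.14 (SE 0.34, adjusted p = 0.0393), a call lost without any 1 siControl, siZFX or siControl_2 library. MLLT1 was at 137, 124 and 57.5 CPM in the double knockdown.

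Each of the cell cycle lists had members called in each direction. Of 46 DNA replication genes 7 were higher (15.2%, against 8.76% of all genes) and 2 lower (4.35%, against 8.97%; median 0.10), whereas directly 3 were higher and 12 lower (median -0.09). GINS1, of the replicative helicase, was at 92.8, 89.2 and 100 CPM in siZFX and 49.1, 48.7 and 51.6 CPM in the double knockdown, and its log2 changes were 0.11 with siZFX and -0.89 with both siRNAs (SE of the difference 0.11, adjusted p = 6.18e-07). ORC6, of the origin recognition complex, was higher by 0.68 (SE 0.14, adjusted p = 0.00129), and 0.40 directly. Of 42 G2/M and mitosis genes 3 were lower (7.14%, against 8.97% of all genes) and 1 higher (2.38%, against 8.76%). Both shares are below those of all genes. Directly 15 were lower and 1 higher. In the difference, without double knockdown replicate 3, 6 were lower and 3 higher. Without double knockdown replicate 1, 6 were higher. The higher count was 0 without siControl replicate 2 or 3, siZFX replicate 2 or siControl_2 replicate 1 or 2. CDC25B, the phosphatase of mitotic entry, had a difference of -0.73 (SE 0.10, adjusted p = 2.12e-05): it rose with siZFX (log2 0.66) and not with both siRNAs (-0.07, adjusted p = 0.495). BIRC5, which encodes survivin, fell in both comparisons and more with both siRNAs, with a difference of -0.48 (SE 0.09, adjusted p = 4.85e-04).

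**Figure D5:**
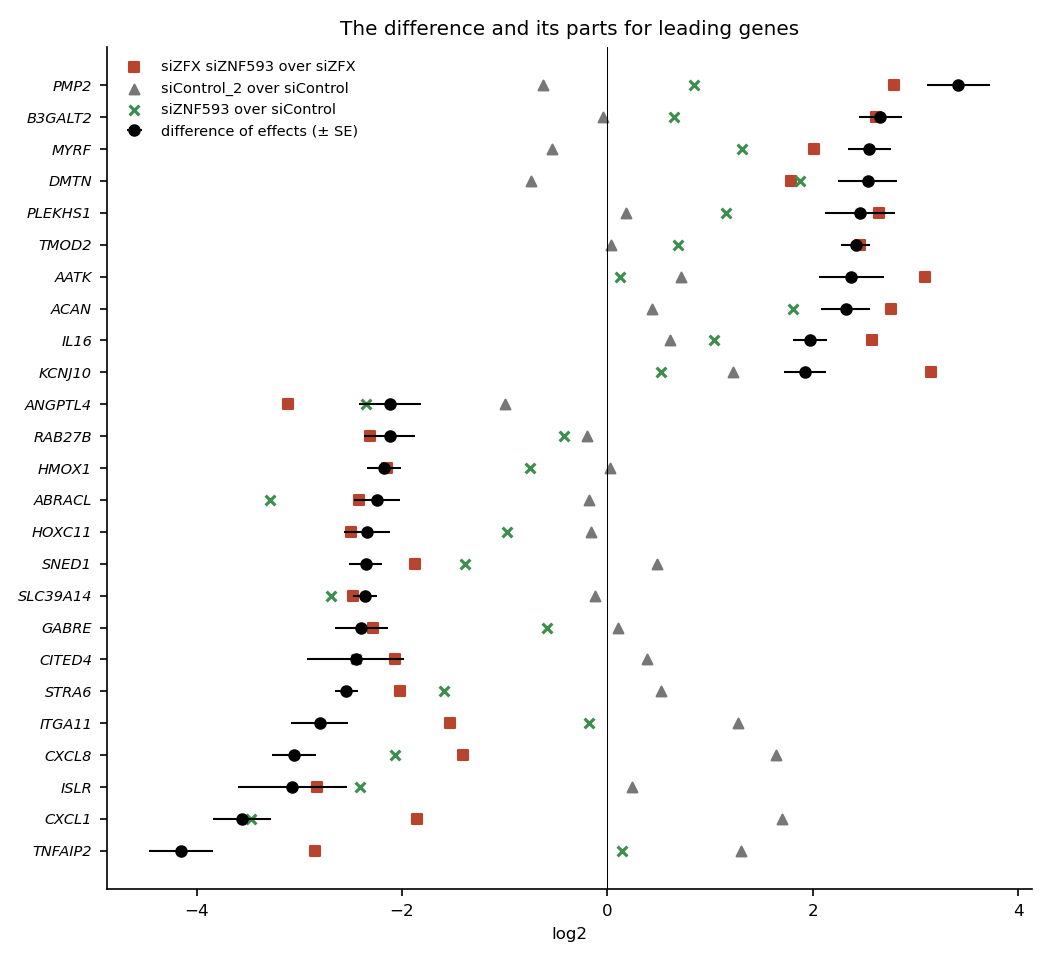
Log2 difference of effects (black, ± SE) for leading genes, beside the double knockdown over siZFX (squares), siControl_2 over siControl (triangles) and siZNF593 over siControl (crosses). For TMOD2, HMOX1 and SLC39A14 the squares lie on the difference and the triangles near 0; for TNFAIP2, CXCL1 and CXCL8 the triangles stand well to the right of 0.

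The difference, which also holds the unequal ZFX levels and the distance between the control sets, can be set beside siZNF593 given alone. The siZNF593 effect shares the siControl libraries with the difference, and 26.8% of all genes were called in it. For SLC39A14 the difference was -2.36 and the siZNF593 effect -2.69, for NQO1 -1.65 and -1.78, and for KAT2B 1.33 and 1.11. The test of the difference between these values was not passed for those 3 genes (adjusted p = 0.302, 0.666 and 0.387). It was called for 680 genes above (3.85%) and 320 below (1.81%) the siZNF593 effect, 5.65% in all. TNFAIP2 was -4.30 (SE 0.43, adjusted p = 1.51e-06) apart, IRAK2 -1.91 (SE 0.25, adjusted p = 3.68e-05) and BGN -2.24 (SE 0.26, adjusted p = 9.23e-06), 3 genes that siZNF593 alone did not change detectably (adjusted p = 0.649, 0.846 and 0.748). On the other side TMOD2 was 1.73 (SE 0.19, adjusted p = 4.54e-06) apart, TIMP3 1.28 (SE 0.12, adjusted p = 6.52e-07) and FABP7 1.42 (SE 0.19, adjusted p = 3.72e-05). TFRC, ETV5 and AXL fell with siZNF593 by more than in the difference, and the values were 1.06, 0.86 and 1.13 apart, each called. MAG was at 2.45, 1.76 and 2.36 CPM in siZNF593, a log2 change of -3.15, against 11.5, 12.4 and 7.37 CPM in the double knockdown.

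In 293T cells, a line from human embryonic kidney, with ZFX and ZNF711 knocked out (DKO cells), FLAG-tagged wild-type ZFX was set against the empty pCMV6 vector, in 3 libraries each that share nothing with LN-229. Over the 15973 genes tested in both lines, 22.6% rose and 21.6% fell with ZFX there. Of the 1509 tested genes lower in the difference 37.1% rose and 14.4% fell, and of the 1414 higher genes 26.3% rose and 25.9% fell. TNFAIP2 rose with ZFX in DKO cells by 2.27 (SE 0.21, adjusted p = 3.66e-09), ITGA11 by 2.51 (SE 0.26, adjusted p = 2.20e-08), SNED1 by 2.30 (SE 0.12, adjusted p = 9.36e-14), MAG by 2.88 (SE 0.40, adjusted p = 2.26e-06) and STRA6 by 1.24 (SE 0.15, adjusted p = 3.38e-07). HMOX1 (-0.05, adjusted p = 0.532) and SLC39A14 (-0.04, adjusted p = 0.54) did not pass there, and PMP2, FABP7 and AKR1C1 had too few counts in DKO cells to be tested.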

How the data were processed

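Per the labels' protocols, total RNA was taken with TRIzol and sequenced from a NEBNext Ultra II RNA library; whether poly(A) RNA was selected is not given in the sources used here. The authors deposited a gene count table per library in the layout of STAR, with unstranded counts and counts for each strand. STAR, HTSeq, DESeq2 and hg38/GRCh38 are named in the submitters' processing notes, with no version. All 58721 gene IDs matched GENCODE 29. The unstranded counts were used, since strand 1 held 50.1% to 50.7% of stranded counts in the 12 libraries, and rows naming no gene were left out (77.6% to 80.5% of reads lay on genes). Counting error is small at this depth for genes above 5 CPM, and reads without molecular identifiers are not independent molecules.

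The 15 LN-229 libraries entered 1 fit with a coefficient per group (edgeR 4.0.16, R 4.3.3): filterByExpr, TMM factors, robust quasi-likelihood test and Benjamini-Hochberg adjustment over all 17684 genes, with calls at an adjusted p below 0.05. CPM values use TMM library sizes. Every adjusted p quoted is from this test, and DKO cells were fitted separately in the same way. The scripts were tested on simulated counts. Alternatives were RLE and upper-quartile factors, other filters, DESeq2 1.42.0, the 4 groups alone, both stranded columns summed, a replicate block, a fold threshold, each library left out, the direct comparison and, added after the data were seen, GC and length offsets. Genes were named by rule: the targets, the 10 protein-coding genes per direction with the largest differences at 5 CPM or more, 10 per direction called alike in the direct comparison without overlap, and up to 3 per list. The text describes 91 of the 145 named genes (some are not reported here), and 11 genes were added after their values were seen, as said beside them. The comparison, its members and the gene lists were chosen with earlier results of these data known.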

Additional observations from a re-analysis of the deposited data

Results flagged for a closer look

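Among the genes described, 39 were called in both effects with opposite signs, and the difference between the effects was itself called by edgeR's quasi-likelihood test for each. Values in brackets are log2 differences. They were selected by that rule from the genes named in the text, so their number is not a rate.

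Of these, 16 fell with siZFX and rose with the double knockdown. Genes of myelin, glia and growth cones among them were PMP2 (3.42), MYRF (2.55), KCNJ10 (1.93), GAP43 (1.91) and TF (0.56). The others were B3GALT2 (2.66), DMTN (2.54), PLEKHS1 (2.46), ACAN (2.32), IL16 (1.97), EPHA3 (1.18), IRS2 (1.43), CCN2 (1.34), THBS1 (0.90), KAT2B (1.33) and SUPT16H (0.72).

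The remaining 23 rose with siZFX and fell with the double knockdown. Matrix, adhesion and secreted signalling genes were ISLR (-3.07), ITGA11 (-2.80), SNED1 (-2.35), BGN (-2.17), COL1A1 (-1.84) and SFRP1 (-2.09). Genes of inflammatory signalling, complement and antigen presentation were IRAK2 (-1.95), ICAM1 (-1.51), C1S (-1.65), IFI6 (-1.27) and HLA-C (-0.95). Enzymes among the NRF2 targets were NQO1 (-1.65), AKR1C1 (-1.85) and TKT (-1.36), and feedback inhibitors of ERK were SPRY1 (-2.25) and DUSP4 (-1.39). The rest were STRA6 (-2.54), GABRE (-2.39), HOXC11 (-2.34), RAB27B (-2.12), MT-ND6 (-1.01), CHD3 (-0.95) and LARP7 (-0.94). For ICAM1, C1S and IFI6 the double knockdown did not differ detectably from siZFX directly, and THBS1 likewise among the higher genes.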

How the results depend on the processing

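The counts of 1550 higher and 1587 lower genes stayed within 1.5 times under the other scalings, filters, tools and count columns, from 1499 to 1926 higher and 1407 to 2098 lower. They moved with a fold threshold of 1.5 (935 and 957) and in the direct comparison of the double knockdown with siZFX (3006 and 3103), which leaves out both control sets and has a median SE of 0.152 against 0.215. Leaving out 1 library gave 1277 to 1920 higher and 1162 to 2003 lower, a ZFX difference of 0.53 to 0.85 and a ZNF593 difference of -3.77 to -3.55. Single genes were followed through these fits only for the 91 named genes that the text describes. Among them, in the direct comparison IFI6 (0.29), CALB2 (-1.56) and STC2 (-1.45) took the other sign. The calls of ICAM1, C1S, POSTN, MAG and THBS1 were lost there. MLLT1 lost its call with no filter, and MLLT1 and SOX10 with the 4 groups alone. With GC and length offsets SOX10 was 0.67 and PES1 -0.31. Upper-quartile factors moved the median of all genes to 0.0545 and the share of higher calls from 49.4% to 56.0%. They moved none of those 91 genes across the threshold.

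With the replicate number as a block, 1522 genes were higher and 1663 lower, of which 1481 and 1554 were called without it. None of the 91 named genes that the text describes lost its call. Deviations of same-numbered libraries from their group means correlated at -0.09 to 0.04 over all genes tested, which showed no pairing by number. A pairing that acts on only part of the genes could leave such values, so they cannot exclude it. Genes at or under about 1 CPM in a group, such as TNFAIP2 in the double knockdown, are those whose fold the depth limits most.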
